A study of Caenorhabditis elegans with 2 samples.

Results

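Of the 1189 reproducible FKH-4 binding peaks, 423 (35.6%) had their summit in the promoter window of exactly 1 protein-coding gene of the nematode Caenorhabditis elegans. A gene's window covered the 1000 bp before and the 200 bp after the transcription start site (TSS) of any of its coding transcripts. Another 274 summits were in windows of at least 2 genes at once (shared-promoter peaks), and 492 lay outside every such window (non-promoter peaks). The single-gene promoter peaks therefore made up 60.7% of the 697 promoter peaks, and each could be assigned to 1 gene by position. They fell at 411 genes, because 12 genes carried 2 of them. A peak in a window is a position and does not show that FKH-4 acts on the gene.

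ChIP-seq, the sequencing of DNA precipitated together with a protein, was used to map FKH-4 in whole hermaphrodites of the first larval stage (L1). Both samples came from the strain OP100, of the genotype unc-119(tm4063) III with the transgene wgIs100, which expresses FKH-4 with a GFP-FLAG tag at its C-terminal end. The larvae had been starved after bleaching, were collected 6 h after that synchronisation, and their chromatin was precipitated with an antibody against GFP. They formed 1 group of 2 biological replicates, all carrying the tagged protein, with no untagged or input sample analysed here and no read depth given in the sources used here. With 1 group, the p-values below compare peaks within these 2 libraries and treat peaks as independent, which they are not.

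Forkhead factors bind DNA through a winged-helix domain, and most prefer a sequence with the core AAACA. Some members of the family also bind an alternate core, GACGC. In C. elegans the family includes PHA-4, which specifies the pharynx, and DAF-16, the FoxO factor of insulin signalling. Promoters of the worm are compact, so that a window of 1 kb often reaches the neighbouring gene, and many genes are transcribed together in operons.

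Most of the strongest single-gene promoter peaks shared a short word that holds neither AAACA nor GACGC. A search for the most frequent 10-base word within 50 bp of the 423 summits gave TCCGAGAGGA (word 1). It was present with at most 1 mismatch, on either strand, in 47 of them (11.1%, 95% exact interval 8.28 to 14.5). The copies shown are from named genes of high signal and lay outside exons. Each is written 5′ to 3′ on the strand of the word, on the ce11 build, with the 10 bases of the word in capitals.
thoc-5 (chrIII:5349412-5349445, plus strand): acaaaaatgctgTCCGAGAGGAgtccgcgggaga
sco-1 (chrII:4299422-4299455, minus strand): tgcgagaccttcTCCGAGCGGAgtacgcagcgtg
cyn-10 (chrII:6913456-6913489, plus strand): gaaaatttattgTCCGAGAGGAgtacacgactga
dhhc-4 (chrIII:9868275-9868308, plus strand): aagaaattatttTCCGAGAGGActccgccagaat
wrm-1 (chrIII:5722063-5722096, minus strand): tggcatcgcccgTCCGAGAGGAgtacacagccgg
cnk-1 (chrIII:10270993-10271026, plus strand): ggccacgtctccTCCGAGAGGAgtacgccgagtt
ekl-6 (chrIII:10064343-10064376, minus strand): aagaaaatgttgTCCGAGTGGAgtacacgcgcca
In these windows the likeness ran past the capitals. Counted from the first base of the word, all 47 copies had a T at position 12 and a C at position 14. The 8 bases after the word were most often gtacacgg, each letter in at least 29 of the 47 copies.

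Word 1 marked the strong end of the single-gene promoter peaks. The 47 peaks with it had a median signal of 155.5, against 79.4 for the peaks without it, in the authors' units for the pooled data. The 2 replicates' own lists showed the same order, with medians of 53.8 against 33.5 in replicate 1 and 101.4 against 48.6 in replicate 2. Of the 20 strongest single-gene promoter peaks, 14 held the word. Its midpoint lay a median of 27 bp from the summit and the peaks a median of 184 bp upstream of the TSS. The word read along the gene's strand in 13 of the 47 copies and against it in the rest. It was found in 1.18% of flanks, windows as long as the summit windows, centred 300 bp upstream of the same summits, and in 0.505% of all coding promoters (windows of 101 bp centred 150 bp upstream of each of 29314 coding TSSs). Spelt backwards, the word occurred in 0 of the 423 summit windows. Words were chosen on these summits, so their shares there are a description without a test.

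Shared-promoter peaks took no part in choosing the word and also carried it. Word 1 lay under 10.6% of the 274 shared-promoter summits and under 1.42% of the 492 non-promoter summits. At shared promoters, too, the peaks with the word were the stronger ones, with a median signal of 219.1 against 84.6 without it. Not every copy in the genome was under a peak. Of the 1000 copies whose midpoint lay in a single-gene promoter window, 54 (5.40%) were within 50 bp of an IDR summit, and of the 163 exact copies 32 (19.6%) were. The word was chosen at single-gene summits, so the shares in these windows are a description.

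Copies of word 1 with T at position 12 and C at position 14 were under peaks at a higher share than copies with other bases, also in windows that had not been used to pick these bases. In shared promoter windows, 33 of 54 copies with both bases lay within 50 bp of an IDR summit (61.1%, 46.9 to 74.1), against 1 of 86 copies with other bases (1.16%, 0.0294 to 6.31). In single-gene windows the counts were 53 of 227 copies against 1 of 773, but there the bases were chosen because the copies under peaks held them. Outside all coding promoter windows, copies with both bases were rarely under a peak, at 4 of 433 (0.924%), against 3 of 2488 copies with other bases (0.121%). The intervals cover counting error only, and chromatin state at the copies was not analysed here.

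A second word occurred at strong peaks, in part beside word 1. The word TGGCCTAGAA (word 3) lay under 36 single-gene promoter summits (8.51%, 6.03 to 11.6), against 0.236% of their flanks and 1.00% of all coding promoters. Capitals again mark the 10 bases of the word in the strongest copies outside exons at named genes.
sco-1 (chrII:4299395-4299428, plus strand): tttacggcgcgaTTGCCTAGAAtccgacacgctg
cyn-10 (chrII:6913491-6913524, minus strand): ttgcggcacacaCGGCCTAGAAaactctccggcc
gly-5 (chrIII:13187944-13187977, minus strand): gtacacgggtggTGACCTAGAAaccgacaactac
sluh-7 (chrV:10356124-10356157, minus strand): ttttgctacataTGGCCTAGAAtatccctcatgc
ldp-1 (chrV:2127185-2127218, plus strand): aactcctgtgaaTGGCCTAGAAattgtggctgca
The 36 peaks with word 3 had a median signal of 135, against 79.6 for those without it, and 7 of the 20 strongest single-gene promoter peaks held it. Of these 7, all but that of gly-5 also held word 1. The signals of peaks with word 3 were not split by word 1, so its own part in them is not shown. Word 3 lay close to the summit, at a median of 10.5 bp. It was in 15.3% of shared-promoter summits and 1.02% of non-promoter summits. Words 1 and 3 occurred together in 14 windows, among them those of sco-1, cyn-10, mrt-2, wrm-1, cnk-1, ekl-6, ssup-72 and cdgs-1. Counted along word 1's strand, word 3 began 22 to 35 bp after word 1 in all of these windows except that of cnk-1, where it began 17 bp before it.

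Peaks with the other 3 words had median signals near or below those of peaks without them. Word 2, GAGACGCAGA, lay under 37 single-gene promoter summits (8.75%), word 4, AACGCGCCAG, under 27 (6.38%) and word 5, GCAAGTGCGC, under 28 (6.62%). In flanks these words had shares of 0.946%, 0.236% and 0.473%. Examples follow, with the word in capitals, first for word 2.
lgg-2 (chrIV:10935561-10935594, minus strand): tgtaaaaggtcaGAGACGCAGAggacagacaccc
fust-1 (chrII:7152137-7152170, plus strand): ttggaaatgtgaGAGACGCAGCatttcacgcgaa
hlh-11 (chrIII:9619215-9619248, plus strand): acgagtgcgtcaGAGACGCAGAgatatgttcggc
rsa-2 (chrIII:11063407-11063440, minus strand): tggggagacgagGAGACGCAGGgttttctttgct
crh-1 (chrIII:11657395-11657428, minus strand): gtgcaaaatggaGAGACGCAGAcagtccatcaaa
For word 4, the copies were these.
fust-1 (chrII:7152158-7152191, plus strand): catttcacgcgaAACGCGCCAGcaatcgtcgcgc
dnj-9 (chrII:4851793-4851826, plus strand): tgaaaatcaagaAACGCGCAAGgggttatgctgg
ruvb-2 (chrIV:6919473-6919506, plus strand): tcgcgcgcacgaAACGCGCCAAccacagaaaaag
ubxn-2 (chrIV:2725953-2725986, plus strand): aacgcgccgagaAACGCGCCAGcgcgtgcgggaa
For word 5, the copies were these.
eelo-2 (chrIV:17249908-17249941, minus strand): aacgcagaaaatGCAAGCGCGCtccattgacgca
dnj-9 (chrII:4851835-4851868, minus strand): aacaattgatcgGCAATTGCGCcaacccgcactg
sup-10 (chrX:17528263-17528296, plus strand): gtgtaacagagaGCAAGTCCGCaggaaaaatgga
Peaks with word 2 had a median signal of 70.6, against 83.0 for those without it. For word 4 the medians were 83.1 and 82.8, and for word 5 they were 84.7 and 82.8. None of the 20 strongest single-gene promoter peaks held word 2 or word 4, and 2 held word 5.

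The words differed in where else they occurred. Word 4 had the lowest share of non-promoter summits, with 8.03% of shared-promoter summits, 0.203% of non-promoter summits and 0.341% of all coding promoters. In single-gene windows, 31 of its 416 copies with at most 1 mismatch (7.45%) lay within 50 bp of an IDR summit. Of its 27 exact copies there, 9 (33.3%) did. The word was chosen at these summits, so these shares are a description. Word 5 was in 8.03% of shared-promoter summits, 1.83% of non-promoter summits and 0.911% of all coding promoters. Word 2 also occurred away from promoters, at 11.99% of non-promoter summits, beside 8.39% of shared-promoter summits and 2.39% of all coding promoters. It holds the octamer of C. elegans promoters, TGCGTCTC, on its other strand. Any of the 5 words was present in 144 single-gene promoter windows (34.0%, 29.5 to 38.8), in 43.4% of shared-promoter windows (37.5 to 49.5) and in 15.9% of non-promoter windows (12.7 to 19.4).

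**Figure D1:**
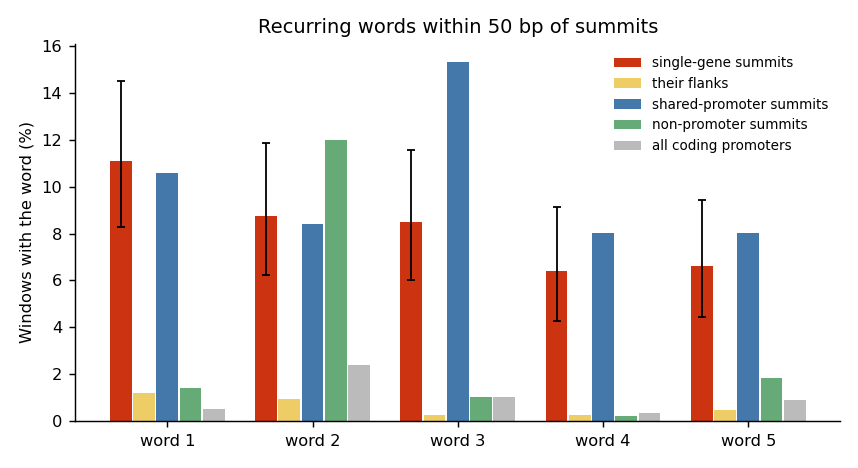
Share of 101 bp windows (vertical axis, %) with each recurring word, with at most 1 mismatch, at the 423 single-gene promoter summits, in their flanks, at 274 shared-promoter and 492 non-promoter summits and in all coding promoters. Error bars are 95% exact intervals of the single-gene shares. Words 1, 3, 4 and 5 were frequent at both kinds of promoter summit and rare at non-promoter summits, and word 2 was frequent at all 3 kinds of summit.

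Among the 4 strongest named peaks without any of the words were those of the translation genes eif-3.B, rpl-35 and rpl-3. Their summit windows are shown on the plus strand, with the summit base in capitals.
eif-3.B (chrII:14795106-14795206, plus strand): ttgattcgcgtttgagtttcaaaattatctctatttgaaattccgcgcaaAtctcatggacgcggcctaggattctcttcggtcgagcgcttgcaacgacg
rpl-35 (chrIII:7854636-7854736, plus strand): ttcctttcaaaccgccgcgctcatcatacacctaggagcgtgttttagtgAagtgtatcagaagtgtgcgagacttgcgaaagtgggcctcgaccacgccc
rpl-3 (chrIII:3867512-3867612, plus strand): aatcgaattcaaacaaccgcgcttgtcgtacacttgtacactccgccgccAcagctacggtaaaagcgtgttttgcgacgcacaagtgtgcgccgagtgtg
The windows of single-gene promoter summits were rich in G and C, with a median of 45.5% against 33.7% in their flanks and 33.7% in all coding promoters. Shared-promoter summits had the same median, 45.5%, and non-promoter summits 41.6%.

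No canonical forkhead spelling passed the test between summits and flanks. GTAAACA was in 4 of 423 summit windows (0.946%) and in 4 flanks. GCAAACA was in 4.49% of summits against 1.89% of flanks (exact McNemar test, adjusted over 24 motifs, p = 0.0964). The shorter TAAACA, which the first spelling holds, was in 4.26% against 7.09% (exact adjusted p = 0.166), and in replicate 2's own list it was lower at summits, 4.19% against 8.37% (exact adjusted p = 0.0324). In all, 37 summit windows and 37 flanks held one of the 3 spellings. In all coding promoters the shares were 1.76%, 2.92% and 9.59%. The strongest peaks at named genes with the 2 longer spellings, in capitals, were the following.
sor-1 (chrIII:8417384-8417414, minus strand): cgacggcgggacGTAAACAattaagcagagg
gei-4 (chrIII:354926-354956, minus strand): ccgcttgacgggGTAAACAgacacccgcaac
scc-2 (chrII:255311-255341, plus strand): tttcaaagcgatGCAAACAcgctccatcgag
srgp-1 (chrIV:11569926-11569956, minus strand): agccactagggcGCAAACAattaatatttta
arx-3 (chrIII:12058611-12058641, plus strand): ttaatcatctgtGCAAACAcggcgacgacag
mrpl-28 (chrII:156125-156155, minus strand): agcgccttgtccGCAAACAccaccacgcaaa
These peaks had signals of 128.6 for sor-1 and 71.2 for gei-4, and 146.6, 135.1, 128.4 and 113.9 for scc-2, srgp-1, arx-3 and mrpl-28 in that order.

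Of the 24 motifs, 5 (20.8%) were more frequent at summits than in flanks and 3 (12.5%) were less frequent, at an adjusted p under 0.05. The alternate forkhead core GACGC was in 94 summit windows, 22.2% against 4.96% of flanks (exact adjusted p = 2.32e-12) and 7.27% of all coding promoters. It was also in 28.8% of shared-promoter summits and 16.5% of non-promoter summits, so it is not particular to single-gene promoters. The octamer and word 2 hold these letters on one strand. Of the 94 windows, 28 held word 2 and 66 held neither. In the 386 windows without the octamer or word 2, the alternate core was in 17.1% of summits against 4.66% of flanks. The same letters spelt backwards were in 21.3% of summits and 4.73% of flanks, and word 2 holds that spelling too. GACGC is rich in G and C, as the summit windows were, and the part of base composition in its share was not tested.

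The other 4 motifs that were more frequent at summits were the promoter octamer, an E2F site and repeats of GC and GA. The promoter octamer was in 6.38% against 0.473% (exact adjusted p = 5.01e-06), and all of its 27 windows held word 2, so that none remained at summits once those peaks were left out. The repeat GCGCGC was in 7.57% against 1.18% (exact adjusted p = 4.46e-05), and backwards in 6.38% against 0.709%. TTGGCGC, a site of the cell cycle factor E2F, was in 5.67% against 0.946% (exact adjusted p = 0.00072). Of its 24 windows 8 held word 4, whose other strand differs from it by 1 letter over their overlap, and backwards it was in 3.07% against 0%. GAGAGAG was in 7.33% against 2.36% (exact adjusted p = 0.0032). The E2F and GAGAGAG calls were lost among IDR peaks above the median signal (exact adjusted p = 0.106 and 0.0539). At shared-promoter summits the shares were 6.57% for the octamer, 7.66% for GCGCGC, 5.47% for TTGGCGC and 5.47% for GAGAGAG. At non-promoter summits the octamer had 6.71% and GAGAGAG 9.76%. For these 4 motifs, too, the part of base composition in the shares was not tested.

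Sequences rich in A and T were rarer at the summits. A run of 8 T or A was in 3.31% of summits against 12.3% of flanks (exact adjusted p = 9.72e-06). The TATA box TATAAA was in 5.44% against 13.5% (exact adjusted p = 0.000461), and the splice acceptor TTTTCAG in 3.78% against 9.93% (exact adjusted p = 0.00184). None of these 3 passed the test in replicate 1's own list, with exact adjusted p of 0.307, 0.0529 and 0.0742, and the TATA box did not pass with windows of 100 bp on either side (0.117). In all coding promoters the shares were 13.4%, 12.8% and 8.50%. Spelt backwards, the TATA box letters were also rarer at summits, 10.4% against 24.1% (exact McNemar test, adjusted p = 4.48e-06). The splice acceptor backwards was in 0.473% against 1.89% and did not pass (exact adjusted p = 0.202). The run of T or A reads the same backwards. The part of the base composition of the windows in these 3 calls was not tested.

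**Figure D2:**
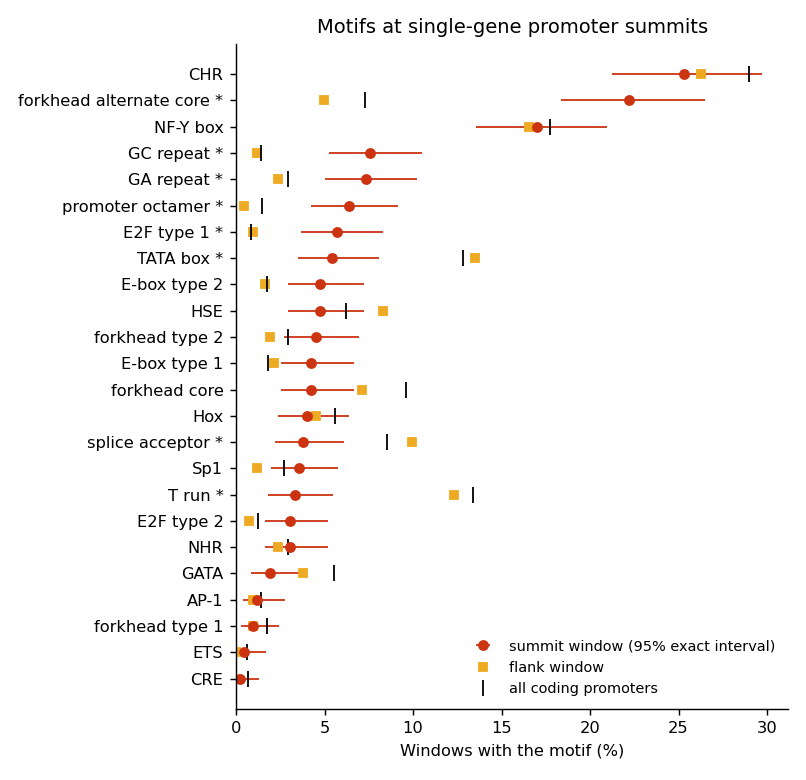
Share of windows (horizontal axis, %) that hold each of 24 motifs on either strand, at single-gene promoter summits (circles, with 95% exact intervals), in flanks 300 bp upstream (squares) and in all coding promoters (vertical ticks). An asterisk marks an adjusted p under 0.05 between summits and flanks, which 8 motifs reached, and the 3 canonical forkhead spellings did not.

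The strongest single-gene promoter peaks were strong in both replicates. All of the 20 strongest were among the 100 strongest peaks of replicate 1 and among the 100 strongest of replicate 2. They were picked by the pooled signal, which is made from the same 2 replicates. High ranks in each were therefore likely from the choice itself and are a description only. Of the 20 strongest, 12 lay at genes with a name, and the other 8 at genes with only a sequence name. The strongest named peak was that of lrpr-1, with a pooled signal of 406.3, 130.8 in replicate 1 and 275.6 in replicate 2, 21 bp upstream of the TSS. At thoc-5, a subunit of the THO complex of mRNA export, the signals were 384.5 pooled, 134.7 in replicate 1 and 247.6 in replicate 2. Each list has its own scale, so only the order within a list can be read from these values.

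Also among them were sco-1, which in yeast and mammals helps to assemble cytochrome c oxidase, and eif-3.B, a subunit of the translation initiation factor eIF3. The sco-1 peak had 359.8 pooled, 131.8 in replicate 1 and 223.1 in replicate 2. The eif-3.B peak had 353 pooled, 133.2 in replicate 1 and 222.6 in replicate 2. Both ranked among the 25 strongest of each replicate, at 23 and 22 in replicate 1 and at 11 and 12 in replicate 2. The ribosomal protein gene rpl-35 (337.8) ranked higher in replicate 1, at 8, than in replicate 2, at 28, and the cyclophilin gene cyn-10 (337.3) ranked at 14 and 24. The reverse held for mrt-2 (318.1), a subunit of the checkpoint clamp of the DNA damage response, at 44 and 14. It also held for gly-5 (309.6), a glycosyltransferase that starts O-linked glycans, at 49 and 18. The weakest of the named peaks were those of egg-5 (281.5), a pseudophosphatase of the oocyte-to-embryo transition, rpl-3 (273.6) and dhhc-4 (272.7), a palmitoyltransferase.

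Over all single-gene promoter peaks, replicate 2 held more of them among its strongest peaks than replicate 1. Of the 423, 370 (87.5%, 83.9 to 90.5) were matched, at 200 bp or less between summits, by one of the 1189 strongest peaks of replicate 2, and 311 (73.5%, 69.0 to 77.7) among those of replicate 1. Both lists held 268 (63.4%) and neither held 10. In the full relaxed lists, 8 had no match in replicate 1 and 1 had none in replicate 2. The 8 were the peaks of cdgs-1, rfc-2, wdr-48, unc-2, pdtf-1, rpl-11.2, nsun-1 and ints-8, and the 1 was a peak of nol-56; these 9 were named after their values were seen. Matched summits were a median of 9 bp apart in replicate 1 and 7 bp in replicate 2. Across the 414 peaks with a match in both, Spearman's rho of the 2 replicates' signals was 0.608, a description across peaks that share the 2 libraries.

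**Figure D3:**
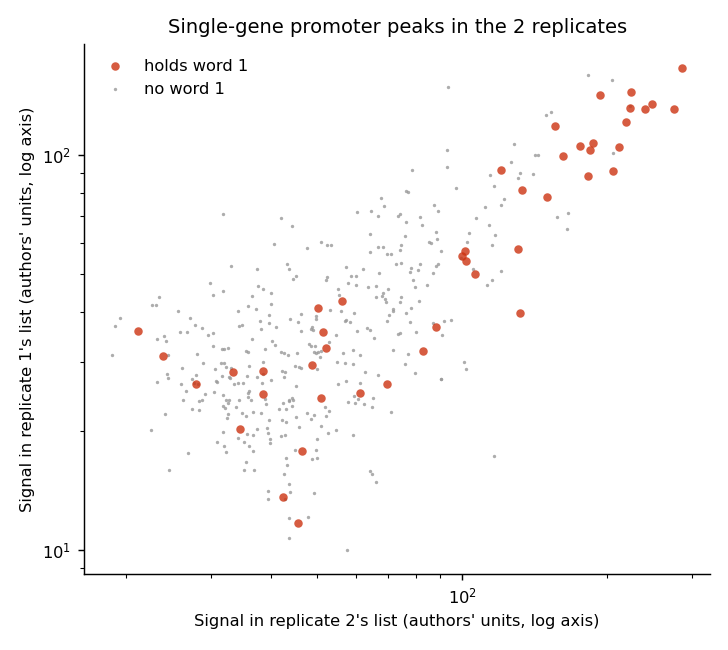
Signal of each matched single-gene promoter peak in replicate 2's list (horizontal, log axis) and replicate 1's list (vertical, log axis), in the authors' units, for the 414 peaks matched in both. Peaks with word 1 (large points) had medians of 53.8 in replicate 1 and 101.4 in replicate 2, against 33.5 and 48.6 for those without it (small points).

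Summit position was the value that chose these peaks, so it is given as a description. The median was 277 bp upstream of the nearest TSS of the gene, with quartiles of 144.5 and 500 bp. It followed the window, at 205 bp with a window from 500 bp upstream to 100 bp downstream and 439 bp with one from 2000 bp upstream. The replicates' own lists of 1189 strongest peaks gave medians of 283 bp for 409 single-gene peaks in replicate 1 and 273.5 bp for 430 in replicate 2. From 250 to 100 bp upstream there were 124 summits, as many as from 500 to 250 bp, a stretch of greater length. The last 100 bp before the TSS held 50 and the 200 bp after it 19. The 19 downstream peaks were weaker, with a median signal of 66.4 against 80.0 to 85.0 in the other 5 stretches, and 7 of them (36.8%) were among the strongest peaks of both replicates. Word 1 was most frequent near the gene, in 19 of the 124 peaks from 250 to 100 bp upstream and 10 of the 50 in the last 100 bp, and in 0 of the 19 downstream of the TSS.

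**Figure D4:**
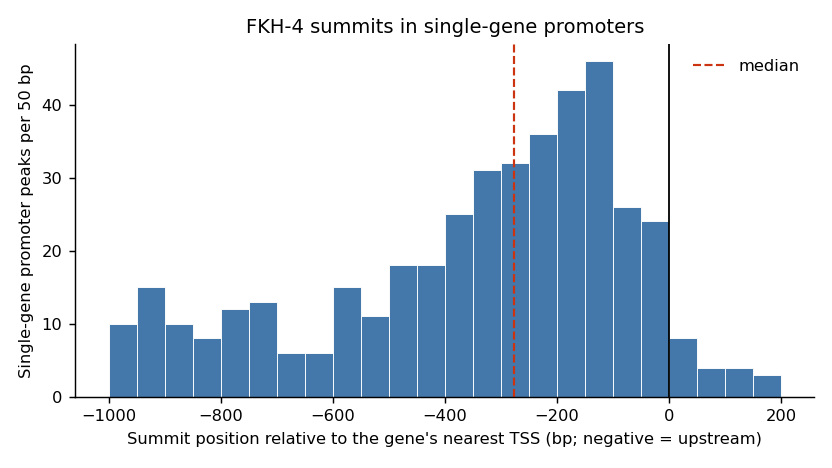
Number of single-gene promoter peaks per 50 bp (vertical axis) by summit position relative to the nearest TSS of the gene (horizontal axis, bp, negative upstream). The dashed line marks the median, 277 bp upstream, and the solid line the TSS, beyond which 19 summits lay.

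Most summits, 326 of 423 (77.1%), lay outside all coding genes. Of the others, 65 were inside the gene itself, 45 of them in an intron, and 33 were inside another coding gene, 1 of which was also inside its own gene. The median signals were 83.0 outside coding genes, 86.9 for the 64 inside the own gene alone and 74.2 for the 33 inside another gene. The 3 summits nearest to the upstream edge lay 997 to 984 bp from the TSS, the first of them at mig-2, a Rac-like GTPase gene (signal 61.4). Just beyond the edge lay 3 summits at positions -1019, -1024 and -1027 relative to the TSS, the middle one at nfki-1 (79.8). At the downstream edge the last summits inside were at 181 bp for mnk-1 (53.2), 183 bp for sup-12 (66.4) and 197 bp, and the first outside was at 203 bp for btbd-10 (124.4). For 11 peaks (2.60%), the window of another gene was missed by 100 bp or less.

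Of the 12 genes with 2 single-gene promoter peaks, those of highest summed signal included dip-2, tos-1, sor-1 and zfp-1. The dip-2 peaks had signals of 199.7 and 132.6 and lay 1783 bp apart, at different TSSs of the gene. The tos-1 peaks (195 and 101.6) were 200 bp apart and matched the same peak in replicate 2. In replicate 1 the match of the weaker tos-1 peak ranked 4631. The sor-1 peaks (128.6 and 84.5) were 218 bp apart and also matched the same peak in replicate 2. The zfp-1 peaks (129.8 and 55.4) were 4581 bp apart, both in an intron of the gene. In replicate 2, 6 single-gene promoter peaks shared their matched peak with another one, and in replicate 1 it was 2.

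Gene groups were read beside the background of 411 of 19973 coding genes (2.06%). The lists were chosen with earlier results of these data known and carry no test. Of 81 cytosolic ribosomal protein genes, 8 had a single-gene promoter peak (9.88%, 4.36 to 18.5), with a median signal of 85.96 against 82.8 over all 423 peaks. Many more had a shared-promoter peak, so that 36 of the 81 (44.4%) had any promoter peak, against 953 of 19973 (4.77%) of all coding genes. The 8 were rpl-35, rpl-3, rps-24 (120.8), rpl-24.2 (94.8), rpl-38 (77.1), rps-4 (62.8), rpl-11.2 (60.01) and rpl-32 (55.6). For rpl-11.2 replicate 1 held no matched peak, and for rpl-32 the match in replicate 1 ranked 10125 of 30000, so these 2 peaks were absent or weak in that replicate. The rps-4 match ranked 1645 there.

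Lists of translation, folding and respiration rested on 3 or 4 genes each. Translation factors had 3 of 43 (6.98%, 1.46 to 19.1), which were eif-3.B, eif-3.C (101.8) and the elongation factor gene eef-1A.2 (64.8). The eef-1A.2 match ranked 1929 in replicate 1, not among the strongest peaks of that replicate. Chaperones had 4 of 67 (5.97%, 1.65 to 14.6), led by the Hsp70 gene hsp-1 (155.1), the J-domain gene dnj-9 (132.1) and the prefoldin gene pfd-6 (79.8). Respiratory chain and ATP synthase genes had 4 of 53 (7.55%, 2.09 to 18.2), led by cox-5A of cytochrome c oxidase (237.5), isp-1, the Rieske protein of complex III (115.4), and nduf-11 of complex I (75.1). The intervals of the translation factors and chaperones include the 2.06% of all coding genes. In these lists, too, shared promoters added to the count, with 12, 18 and 9 genes having any promoter peak.

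Other lists of general cell functions had 2 to 8 genes with a peak. Chromatin and transcription machinery had 8 of 123 (6.50%, 2.85 to 12.4), led by taf-12 of TFIID (170.5), the histone H3 lysine methyltransferase gene set-2 (128) and the acetyltransferase gene cbp-1 (108.3). Cyclins, cell cycle kinases and DNA replication had 7 of 83 (8.43%, 3.46 to 16.6), led by the AAA ATPase gene cdc-48.1 (220.5), pcn-1, the sliding clamp PCNA (186.7), and the kinase gene cdc-7 (94.2). The list takes in cdc-48.1 by its name, and likewise cdc-73 (82.9), a subunit of the Paf1 transcription complex. The cdc-73 match ranked 8433 in replicate 1, so this peak was weak in that replicate. The ubiquitin system had 6 of 72 (8.33%, 3.12 to 17.3), led by ufd-3 (180.5) and the conjugating enzyme genes ubc-25 (62.9) and ubc-3 (59.8). In replicate 1 the ubc-25 match ranked 1553 and the ubc-3 match 4157, so neither was among the strongest peaks of that replicate. Of 33 proteasome genes, 2 had a peak (6.06%, 0.743 to 20.2), rpn-11, the deubiquitinase of the lid (97.7), and pas-5, a core subunit (67.3). The pas-5 match ranked 1995 in replicate 2, not among the strongest peaks of that replicate. Vesicle traffic had 6 genes with a peak (5.71%, 2.13 to 12.02), led by the ESCRT ATPase gene vps-4 (113.1), the COPII gene sec-24.1 (85.4) and the syntaxin gene syx-3 (74.3). The syx-3 match ranked 1476 in replicate 1, also not among the strongest peaks there. Dynein, tubulin and motor genes had 3 of 47 (6.38%, 1.34 to 17.5), which were dnc-3 of dynactin (112.3), the dynein intermediate chain gene dyci-1 (88.2) and the tubulin gene tba-2 (82.8). The intervals of the proteasome and of the dynein, tubulin and motor genes include the 2.06% of all coding genes.

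Body wall muscle gave the highest share of the 30 lists, with 8 of 51 genes (15.7%, 7.02 to 28.6). Its peaks were at the calponin gene cpn-3 (172.8 pooled, 39.8 in replicate 1, 131.6 in replicate 2) and at unc-89, the worm obscurin (108.7, 35.3, 73.6). The troponin I gene tni-3 followed (90.9, 51.4, 37.4), with its summit in an intron of another gene. Peaks also stood at clik-1, act-1, unc-27, tnt-2 and mup-2, with pooled signals from 56.4 to 85.4. The tnt-2 peak ranked 1686 in replicate 2, outside its 1189 strongest. These are genes of the thin filament or its regulators, apart from unc-89, which belongs to the M-line, and clik-1, a calponin-related gene. Here single-gene promoters made up most of the total, since 10 of the 51 genes had any promoter peak.

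The Wnt pathway had 4 of 27 genes (14.8%, 4.19 to 33.7). They covered the ligand cwn-1 (74.1), the transducer Dishevelled dsh-1 (113.1), the beta-catenin wrm-1 (216.6), and pop-1, the TCF factor (60.4). The wrm-1 peak was strong in both replicates (ranks 89 and 65) and held words 1 and 3. The peaks of cwn-1 and pop-1 ranked 1658 and 5760 in replicate 1, below its 1189 strongest. Of 34 pan-neuronal genes 4 had a peak (11.8%, 3.30 to 27.5). These were unc-16, a JIP3 scaffold of axonal transport (95.4), unc-76, an axon outgrowth gene (72.7), snb-1, the synaptobrevin (57.9), and syd-2, the liprin of the active zone (54.4). The snb-1 peak ranked 2372 in replicate 1, and the syd-2 peak ranked 1305 in replicate 1 and 1610 in replicate 2, outside the 1189 strongest of both.

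Several large gene families had few single-gene promoter peaks. Of 1286 chemoreceptor genes 1 had a single-gene promoter peak (0.0778%), srd-3 (97.1). None of the 240 C-type lectin genes (upper bound 1.52%) and none of the 175 cuticle collagen genes (upper bound 2.09%) had one. Nuclear hormone receptors had 2 of 273 (0.733%), F-box and MATH-domain genes 1 of 395 (0.253%), neuropeptide genes 1 of 140, and cytochrome P450 and UGT genes 1 of 141. Intervals of the collagen, nuclear hormone receptor, neuropeptide, and cytochrome P450 and UGT lists include the 2.06% of all coding genes. Those of the chemoreceptor, C-type lectin, and F-box and MATH-domain lists lie below it. No gene of the intestine (34), epidermis (39) or pharynx (26) lists had any promoter peak, with upper bounds of 10.3%, 9.03% and 13.2% for single-gene ones. Germline, cilia and histone lists had 1 gene each. The shares were 2.08% of 48 (0.0527 to 11.1), 1.59% of 63 (0.0402 to 8.53) and 1.39% of 72 (0.0352 to 7.5). Those genes were cgh-1 (68.8), dyf-6 (60.4) and his-37 (127.7), and the cgh-1 match ranked 4008 in replicate 1. The intervals of these lists and of the intestine, epidermis and pharynx lists include the 2.06% of all coding genes.

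Transcription factors named by family were close to the background, with 5 of 209 (2.39%, 0.781 to 5.49). They were hlh-11 of the bHLH family (112.7), the CREB gene crh-1 (100.9), the zinc finger gene ztf-7 (88.4), the Hox gene mab-5 (78.6) and fkh-9, another forkhead gene (72.2), which ranked 2251 in replicate 1. Splicing factors (2 of 57), mitochondrial ribosomal proteins (2 of 70) and aminoacyl-tRNA synthetases (1 of 32) had shares of 2.86% to 3.51%. Over all 30 lists together, 85 of 4083 genes (2.08%) had a peak, close to the 2.06% of all coding genes. Genes known only by a sequence name were 115 of the 411 genes with a peak (28.0%), against 45.4% of all coding genes.

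**Figure D5:**
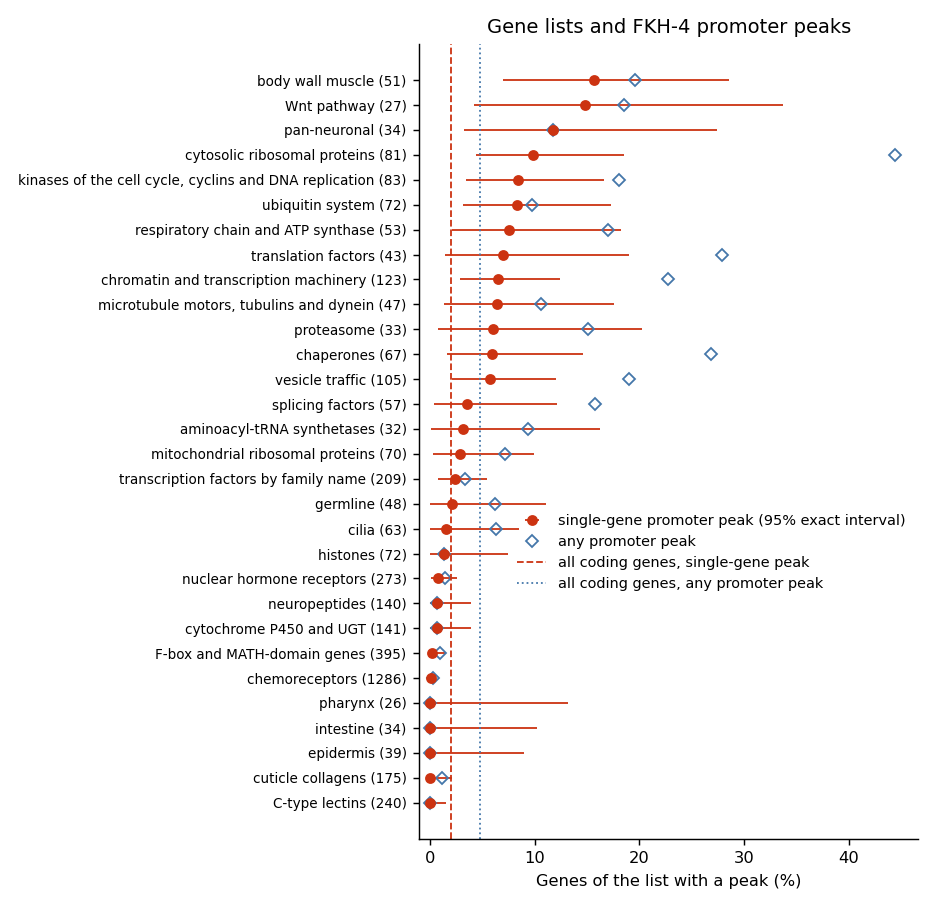
Share of the genes of each list (horizontal axis, %; number of genes in brackets) with a single-gene promoter peak (circles, with 95% exact intervals) or any promoter peak (diamonds). The vertical lines mark all coding genes, 2.06% (dashed) and 4.77% (dotted). Body wall muscle is highest for single-gene peaks and cytosolic ribosomal proteins for any promoter peak.

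A few single-gene promoter peaks stood beside the start of a small RNA gene. Within 200 bp of the summit there was such a start for 16 of the 423 peaks (3.78%), a snoRNA for 9, a snRNA for 6 and a tRNA for 1. The share was 2.19% for shared-promoter and 5.49% for non-promoter peaks. Neither difference passed the test (Fisher's exact test, two-sided, adjusted p = 0.784 and 0.584). The strongest of the 16 was the peak assigned to egg-5, 579 bp upstream of its TSS, with sls-2.4, a gene of the spliced leader SL2 RNA, within 200 bp. The peaks of snr-4, which encodes an Sm protein, were both near a snRNA gene. For these 16 peaks the assignment to the coding gene is by position alone.

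Against shared-promoter peaks, 3 of 30 features (10%) passed the test, but 2 of them were distances to the nearest TSS, which the windows that define both classes fix, and nothing is read from these. As a description, 14.7% of single-gene summits against 35.8% of shared-promoter summits lay within 100 bp of a TSS, and 45.9% against 82.1% within 250 bp. The remaining feature was presence among the strongest peaks of both replicates, 63.4% against 74.1% (Fisher's exact test, two-sided, adjusted p = 0.0369). That call was lost with narrower or wider windows (exact adjusted p = 0.13 and 0.641), among peaks above the median signal (0.959), without peaks inside another gene (0.0679) and without peaks that hold word 1 (0.123). No motif passed the test between the 2 kinds of promoter peak. The median signals were 82.8 and 90.5, and 52.01% against 59.1% of peaks were above the median of the set (exact adjusted p = 0.366).

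Against non-promoter peaks, 2 of 27 features (7.41%) differed, both motifs. The count was 5 in replicate 2's own list and 5 with the window from 500 bp upstream to 100 bp downstream. The E2F site TTGGCGC was in 5.67% of single-gene summits against 1.22% of non-promoter summits (Fisher's exact test, two-sided, adjusted p = 0.00671). The repeat GCGCGC was in 7.57% against 2.85% (exact adjusted p = 0.0174). Both calls were lost with the window extended to 2000 bp (exact adjusted p = 0.116 and 0.075) and among peaks above the median signal (0.141 and 0.76), and the second also in either replicate's own list (0.0938 and 0.104). The part of base composition in these 2 calls was not tested. The alternate forkhead core was in 22.2% against 16.5% (exact adjusted p = 0.11). The median signals were 82.8 for single-gene peaks and 75.01 for non-promoter peaks, and 63.4% against 61.2% were among the strongest peaks of both replicates.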

How the data were processed

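The authors deposited peak lists of FKH-4 ChIP-seq for each of 2 replicates, for both pooled and as an IDR (irreproducible discovery rate) set, on ce10 and ce11; only ce11 was used. Aligner, peak caller and IDR threshold were not given in the sources used. The deposited signal is the authors' own score of peak strength, of unstated scale, and served only within a list. The deposited −log10 q values lay between 2.2 and 3.3 for IDR peaks and entered no test. The lists held 1189 (IDR), 30000 (pooled), 30000 (replicate 1) and 22442 (replicate 2) peaks, and read depth is unknown.

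Summits were assigned to genes of Ensembl release 115 (WBcel235, the same assembly as ce11), with coordinates counted from 1. With non-coding transcripts of coding genes also counted, 424 peaks qualified in place of 423. Shares have 95% exact Clopper-Pearson intervals, which cover counting error only. Peak classes were compared by Fisher's exact test, two-sided, and summits with flanks by exact McNemar tests, with Benjamini-Hochberg adjustment within each family and a threshold of 0.05, in scipy 1.17.1 under Python 3.11.15. Both tests and the assignment were tested on simulated data. Sequences came from the RefSeq copy of WBcel235 and motifs were searched on both strands. The 5 words were found in turn, each time leaving out windows that held an earlier one.

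The alternatives that leave out peaks with word 1 or word 2, spell motifs backwards or count non-coding transcripts were added after seeing the data. Members, lists, motifs and tests were chosen with earlier results of these data known. Named genes are those of the 20 strongest members, up to 3 per list by signal, 3 at each edge of the window and up to 5 genes with 2 peaks. Full lists, genes with words, unmatched peaks and genes of sequences shown were named after their values were seen. Of the listed names, 1 was absent from the annotation. A gene that this rule would name is not reported here.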

Additional observations from a re-analysis of the deposited data

How the results depend on the processing

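Over the alternatives, repeats of the 13 called single results kept their direction and their side of the threshold in 100 cases, lost the call in 18 and reversed in 1. The 13 include the 2 distances to the nearest TSS, which the windows fix and which kept their call in every alternative. GAGAGAG and the run of T or A read the same backwards, so that alternative could not change them. The 100 therefore overstate how far the results were put to a test. The reversal was the promoter octamer after peaks with word 2 were left out, a difference of -0.259 points between summits and flanks, which follows from word 2 holding the octamer. Taking the IDR peaks above the median signal left 220 single-gene promoter peaks, of which 95.5% were among the strongest of both replicates, at a median of 269 bp upstream, with 42 listed genes and 1 feature that differed from non-promoter peaks. A strongest set of 2 times the size in each replicate raised the share in both to 85.3%. A window from 500 bp upstream to 100 bp downstream gave a median of 205 bp, 5 features against non-promoter peaks and 9 motifs more frequent at summits. A window from 2000 bp upstream gave a median of 439 bp and 0 features by Fisher's exact test with adjustment. Flanks centred 500 bp away gave 8 motifs, and leaving out peaks inside another gene gave a median of 266 bp. Leaving out 1 replicate in turn, with the 1189 strongest peaks of the other one's list, gave 409 to 430 single-gene peaks, medians of 273.5 to 283 bp, 2 to 3 features against shared-promoter peaks, 2 to 5 against non-promoter peaks, 5 to 8 motifs and 78 to 90 listed genes. Presence among the strongest peaks of both replicates was not a feature in these single lists. Against shared-promoter peaks, the 2 features without replicate 1 were the distances to the nearest TSS. Without replicate 2 the third was a summit inside a coding gene, 30.8% against 19.3% (Fisher's exact test, two-sided, unadjusted p = 0.00114). In the pooled set that feature did not pass. The highest counts of features against non-promoter peaks and of motifs, 5 and 8, were those without replicate 1. The cause of these shifts was not tested. No paired analysis was possible because both replicates belong to 1 group. Depth is not given, so weak peaks cannot be told from absent ones.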
